A study of Mus musculus with 27 samples.

Results

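The cyclin-dependent kinase (CDK) inhibitors are the proteins that hold back the kinases driving the cell cycle. Their genes form 2 families. The INK4 genes Cdkn2a, Cdkn2b, Cdkn2c and Cdkn2d encode p16, p15, p18 and p19, which bind CDK4 and CDK6 and keep cyclin D from activating them, so that the RB protein stays unphosphorylated and E2F target genes stay off. The CIP/KIP genes Cdkn1a, Cdkn1b and Cdkn1c encode p21, p27 and p57, which bind complexes of cyclin with CDK2 and arrest cells in response to p53, mitogen withdrawal or differentiation. Cdkn2a has a further product, ARF, which is made from another first exon and stabilises p53 by blocking MDM2. Cdkn2a and Cdkn2b lie side by side, are kept silent by Polycomb complexes in embryonic stem cells and are known to come on in mesenchymal cells such as fibroblasts in culture.

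These 7 genes were taken by symbol, matched through the RefSeq accession of each array probe, out of 37208 genes and transcripts measured. They were read by 10 probes. All cells came from the dnFOS line of mouse ESCs, in which a Flag-tagged dominant-negative FOS peptide, inserted into the A2lox cassette, is made when doxycycline (DOX) is present and keeps AP-1 (dimers of JUN and FOS proteins) from binding DNA. The 27 one-colour Agilent arrays fell into 13 groups. These were freshly purified FLK1+ hemangioblast cells from embryoid bodies, and, each with and without 1 µg/ml DOX, whole blast cultures at 5 h, called FLK1+ 5h here, or at 24 h, called d1 BC, and smooth muscle (SM), early hemogenic endothelial (HE1), late hemogenic endothelial (HE2) and hematopoietic progenitor (HP) cells sorted from cultures given DOX for 2 d. Untreated SM cells were on 3 arrays and every other group on 2, so that the small number of arrays limits the precision. The untreated cells carry the same cassette, cells without it were not given DOX on these arrays, and the sources used here do not say whether the replicates were separate differentiations, so p-values measure the spread between these samples only. The ESCs were kept on mouse embryonic fibroblast feeders before differentiation.

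Values are log2 signals relative to the 75th percentile of the same array, so that 0 marks that percentile. Levels of different probes cannot be set against each other, and in bulk RNA fewer cells expressing a gene and less RNA per cell cannot be told apart. The 75th percentile itself lay between 73.2 and 636 signal units, and the share of probes well above background from 47.0% to 89.6%. The arrays lay on 5 slides, and arrays of slide 3 often stood above the other arrays of their group for Cdkn1b, Cdkn2c and Cdkn2d, so values within slides are given beside the comparisons. Hprt, next to which the cassette lies in A2lox cells, had every DOX array above every untreated array in all 6 populations (mean log2 difference 2.80 ± 0.23 SE, adjusted p = 1.02e-05). Of the smooth muscle markers Acta2 and Cald1 peaked in untreated SM cells at 9.58 and 4.05. Tagln, Myl9 and Tpm2 peaked in d1 BC at 9.41, 6.93 and 6.19, Cnn1 in FLK1+ 5h cells at 7.02 and Smtn in HE2 at 4.46. The endothelial marker Cdh5 peaked in HE1 at 5.66, but Tie1 in HE2 at 3.99. The blood progenitor marker Gfi1b peaked in HP at 4.86, but Itga2b in HE2 at 3.21. Myh11, a marker of mature smooth muscle, had group means of at most -1.02, in d1 BC with DOX, and of -3.09 in untreated SM cells.

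The sequences upstream of Cdkn2a and Cdkn2b are shown because these 2 neighbouring genes carried the differences described below. In the GRCm38.p6 assembly Cdkn2a spans chr4:89274473-89294619 and Cdkn2b chr4:89306289-89311032, both on the minus strand and 11669 bases apart. RefSeq lists 2 transcripts of Cdkn2a with separate starts. The 250 bases before each start, in the direction of transcription, are given in lower case, with the CRE motif TGACGTCA, which ATF and JUN proteins can bind as dimers, in capitals.
Cdkn2b, chr4:89311033-89311282, minus strand: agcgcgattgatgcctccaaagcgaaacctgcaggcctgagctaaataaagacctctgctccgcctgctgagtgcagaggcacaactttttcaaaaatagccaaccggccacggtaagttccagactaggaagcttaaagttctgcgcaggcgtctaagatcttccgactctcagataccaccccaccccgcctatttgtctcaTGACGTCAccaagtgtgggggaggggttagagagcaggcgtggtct
Cdkn2a, upstream start, chr4:89294620-89294869, minus strand: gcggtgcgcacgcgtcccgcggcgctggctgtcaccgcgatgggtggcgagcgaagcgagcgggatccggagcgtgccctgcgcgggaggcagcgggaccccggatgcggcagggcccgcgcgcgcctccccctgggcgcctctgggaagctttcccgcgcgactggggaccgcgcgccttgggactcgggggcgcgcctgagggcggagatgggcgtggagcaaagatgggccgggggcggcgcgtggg
Cdkn2a, downstream start, chr4:89282193-89282442, minus strand: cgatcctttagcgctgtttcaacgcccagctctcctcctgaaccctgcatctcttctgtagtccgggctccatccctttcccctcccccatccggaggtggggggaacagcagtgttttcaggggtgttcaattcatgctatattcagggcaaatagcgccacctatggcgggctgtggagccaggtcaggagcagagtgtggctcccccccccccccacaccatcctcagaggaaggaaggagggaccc

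The CRE in front of Cdkn2b began 46 bases before the start, and the letters TGACGTCA were found on either strand in 1.79% of 32851 RefSeq promoters of 300 bases (250 before to 50 after the start). The AP-1 motif TGANTCA, present in 7.81% of promoters, and the TEAD motif GGAATG, present in 14.7%, were in none of the 9 windows of 6 of the genes, and no window of Cdkn1c was in the table. The motifs searched do not overlap each other in the printed sequences. The region before the upstream Cdkn2a start was richer in G and C (78.4%, with 40 CpG) than those before the downstream start (60.0%, 7 CpG) and Cdkn2b (53.6%, 12 CpG). These matches describe letters and not binding.

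The levels in the untreated populations were compared first, to ask how the inhibitors differ between the stages of blast culture. Cdkn2a, Cdkn2b and Cdkn1c differed between the 7 untreated populations, whereas Cdkn1a, Cdkn1b, Cdkn2c and Cdkn2d did not pass the test (limma F test, 3 of 7 called beside 17.9% of 27472 genes tested). Cdkn2a was 4.39 higher on the log2 scale in d1 BC than in FLK1+ cells. Cdkn2b was highest in d1 BC and had its lowest mean in HE2 cells, where 1 of 2 arrays was well above background, so that the size of their difference is uncertain. On a second, dimmer probe the means of FLK1+ (-5.24) and HP cells (-4.97) lay below that of HE2 cells (-4.72). Cdkn1c was highest in SM and lowest in HP cells, 11.0-fold apart. Without 1 array at a time its span over the untreated populations ran from 2.84 to 4.27 on the log2 scale.

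Cdkn2a encodes p16 and ARF, and both of its probes carry the same transcript accession, so that its products could not be told apart. On all 27 arrays the brighter probe exceeded background clearly. It stood at -0.63 and -1.32 in FLK1+ cells and at -0.07 and -1.21 after 5 h of blast culture. One day into blast culture it stood at 3.71 and 3.11. SM cells gave 2.61, 3.60 and 3.01 and HE1 cells 3.09 and 2.16. HE2 cells gave 2.23 and 1.12 and HP cells 0.50 and 1.76. All arrays from d1 BC onwards thus lay above all arrays of the FLK1+ and FLK1+ 5h groups, and the levels then stepped down from d1 BC over SM, HE1 and HE2 to HP without any neighbouring pair in that order being called.

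Between single pairs of populations 20 of 146 tested differences were called. In FLK1+ cells 2 genes differed from d1 BC (beside 4.48% of all genes), 2 from SM (8.21%), and 1 each from HE1 (11.6%), HE2 (10.5%) and HP cells (11%). In FLK1+ 5h cells 1 gene each differed from d1 BC (1.44%), SM (4.43%), HE1 (11.3%), HE2 (20.6%) and HP cells (13%). HP cells differed in 3 genes from SM (9.33%) and in 2 from d1 BC (9.48%), and HE2 cells in 2 from SM (8.16%) and in 1 from d1 BC (8.23%). No inhibitor was called between HP and HE2 (0.00394%), HP and HE1 (4.23%), HE2 and HE1 (2.34%), HE1 and SM (0.568%), HE1 and d1 BC (3.13%), SM and d1 BC (0.251%) or FLK1+ 5h and FLK1+ cells (2.84%).

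The F test gave an adjusted p of 4.69e-05 for Cdkn2a, and 11 of its 21 pairwise differences were called. The rise from FLK1+ to d1 BC was 4.39 ± 0.61 (SE) on the log2 scale with an adjusted p of 0.000260, and that from FLK1+ 5h to d1 BC was 4.05 ± 0.61 with an adjusted p of 0.00237. SM exceeded FLK1+ cells by 4.06 ± 0.56 (adjusted p = 0.000143). HP minus SM was -1.95 ± 0.56 (adjusted p = 0.0315). Within single slides d1 BC exceeded FLK1+ by 4.09 and SM exceeded FLK1+ by 3.59 on slide 4, and HP minus SM was -2.52 on slide 1 and -1.84 on slide 3.

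Cdkn2b encodes p15, known as a target of TGF-beta signalling. It stood at -2.30 and -2.87 in FLK1+ cells and at -2.43 and -0.47 in the FLK1+ 5h group. In d1 BC it stood at 2.73 and 2.88, and in SM cells at 2.49, 2.41 and 0.29. In HE1 cells the values were -1.52 and -1.26. HE2 cells gave -4.96 and -3.90, and HP cells -5.61 and -0.50, and in each of these groups the lower value was not well above background. Cdkn2b was therefore high in d1 BC and SM cells, with no overlap with any other untreated population, and near the limit of detection in HE2 cells, while the arrays of HP cells were split between the floor and -0.50.

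For Cdkn2b the F test gave an adjusted p of 0.000808, and 6 of the 20 pairs tested were called. The difference of d1 BC to FLK1+ cells was 5.40 ± 1.20 (adjusted p = 0.0115), and that of SM to FLK1+ cells was 4.32 with a 95% interval from 2.02 to 6.61 (adjusted p = 0.0184). HE2 minus SM was called (adjusted p = 0.000908), with 1 of 2 HE2 arrays well above background, and on the slide of that array it was -6.31. The step from d1 BC to SM was not called (adjusted p = 0.998), nor was that from SM to HE1 (adjusted p = 0.262).

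Cdkn1c encodes p57, an imprinted inhibitor expressed in differentiating mesoderm. In SM cells it stood at 5.68, 3.70 and 6.57, and in HE1 cells at 5.00 and 2.65, and the lower value in each group came from slide 3. FLK1+ cells gave 4.33 and 4.50, FLK1+ 5h cells 4.71 and 3.94, and d1 BC 3.62 and 3.94. HE2 cells, at 2.06 and 2.02, and HP cells, at 2.17 and 1.54, lay below every array of the other untreated populations. The F test gave an adjusted p of 0.0183, which missed the threshold without HP replicate 2 (0.0710), with quantile normalization (0.0611), with the authors' values (0.0562) and with only the groups compared (0.0768). Of its pairs HP minus SM (-3.46 ± 0.76, adjusted p = 0.00485) and HE2 minus SM (-3.27 ± 0.76, adjusted p = 0.00822) were called. Within slides HP minus SM was -4.40 and -2.16, and HE2 minus SM was -4.51 and -1.67.

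Cdkn2d, which encodes p19 of the INK4 family, ran the other way with 3.78 and 4.98 in HP and 3.61 and 4.35 in HE2 cells. Its levels were 3.05 and 3.26 in HE1, 2.67, 3.73 and 2.08 in SM, 3.09 and 2.98 in d1 BC, 2.51 and 2.00 in FLK1+ 5h and 2.55 and 2.41 in FLK1+ cells. Its F test was not called (adjusted p = 0.165), and of 21 pairs HP minus FLK1+ 5h was called (2.13 ± 0.68, adjusted p = 0.0468), for groups that shared no slide. Over the 13 group means Cdkn2d and Cdkn1c had a Pearson r of -0.72, a description of groups that share slides.

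Cdkn2c, which encodes p18, stood between -4.05 and -3.66 in FLK1+ cells and between -1.47 and -1.36 in HE1 cells, and no pair of populations was called for it (F test, adjusted p = 0.258). It was well above background on 26 of 27 arrays, the exception being untreated HE2 replicate 1. The 2 probes of Cdkn1a carry different transcript accessions and had an r of 0.24 over the 27 arrays, and the brighter is given here. Cdkn1a, which encodes the p53 target p21, was lowest in FLK1+ cells (2.26 and 2.53) and highest in FLK1+ 5h cells (4.21 and 3.37). Cdkn1b, which encodes p27, was lowest in FLK1+ 5h (0.91 and 1.49) and highest in FLK1+ cells (2.77 and 2.58). Neither passed the F test (adjusted p = 0.438 and 0.477), and most neighbours in their order of levels overlapped.

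**Figure D1:**
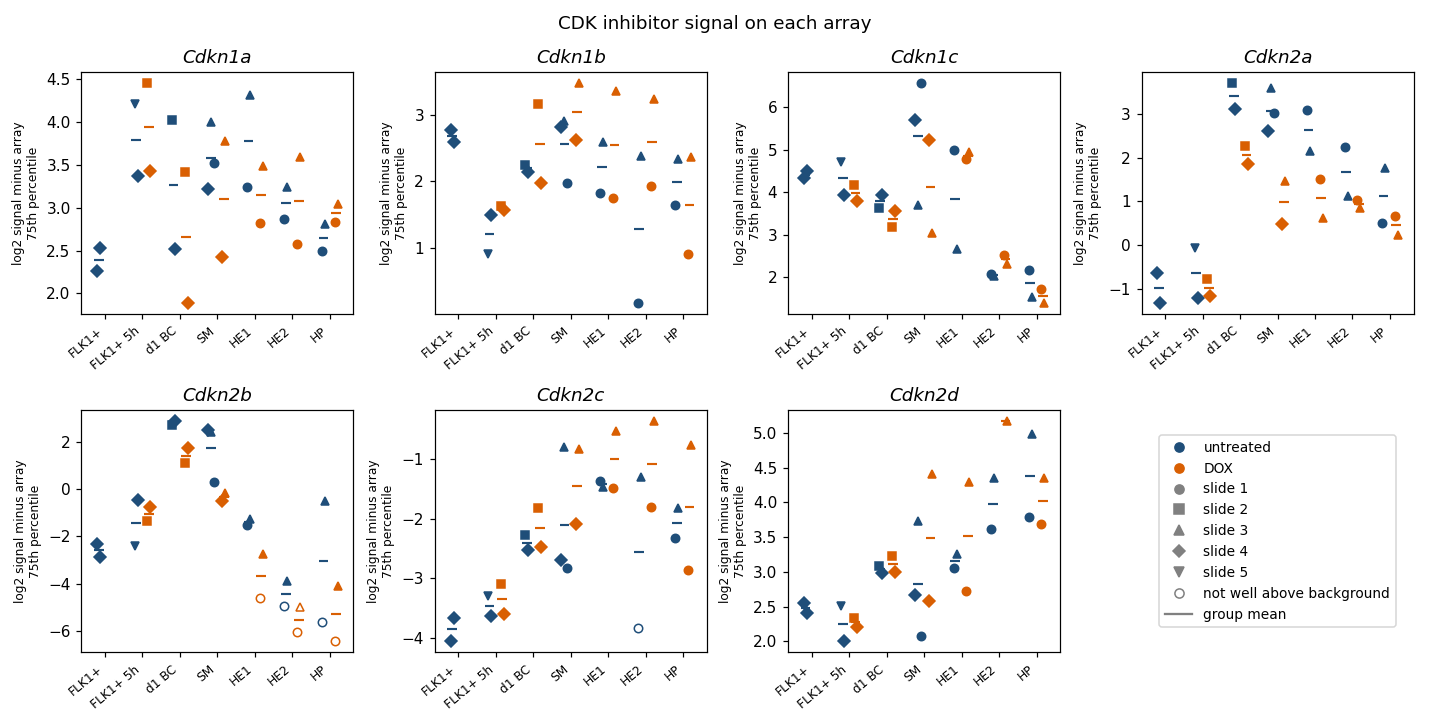
Log2 signal of the 7 CDK inhibitors on each array (vertical axis, relative to the 75th percentile of the array) by population, with untreated arrays in blue, DOX arrays in orange, marker shapes for slides, open markers for signals not well above background and bars for group means. Cdkn2a and Cdkn2b stand high in d1 BC and SM cells and do not overlap between DOX and untreated arrays in HE1, SM and d1 BC, where the DOX arrays lie lower, with 1 HE1 array of Cdkn2b open.

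The DOX-treated and untreated cells were then compared, to ask which inhibitors respond when AP-1 is blocked. The main values were low signals of Cdkn2a and Cdkn2b with DOX in HE1, SM and d1 BC. No CDK inhibitor was called in any population, however, since 0 of 40 comparisons with a test passed limma's adjusted p and fold threshold and 3 had an unadjusted p under 0.05. Those 3 were Cdkn2a in HE1, SM and d1 BC. Calls were rare among all genes, at 0.0398% in HP, 0.00839% in SM, 0.0042% in FLK1+ 5h and 0% in d1 BC, HE1 and HE2 cells. An F test for any DOX effect called 0.0353% of genes and none of the 7 (Cdkn2a, unadjusted p = 0.00454, adjusted p = 0.803). The share of genes with an unadjusted p under 0.05 was 2.6% for SM, 1.44% for d1 BC and 1.14% for HE1.

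With DOX, Cdkn2a stood at 2.28 and 1.86 in d1 BC, below the untreated 3.71 and 3.11. It stood at 0.49 and 1.47 in SM cells with DOX, below 2.61, 3.60 and 3.01. In HE1 cells with DOX it stood at 1.52 and 0.63, below 3.09 and 2.16. In HE2 cells it stood at 1.03 and 0.84, below 2.23 and 1.12. Every DOX array thus lay below every untreated array in these 4 populations, while the values overlapped in FLK1+ 5h cells (-0.78 and -1.17 with DOX) and in HP cells (0.67 and 0.23 with DOX). Among all genes such a separation downwards occurred in 14.4% for HE2, 9.8% for d1 BC, 8.33% for HE1 and 6.03% for SM.

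The log2 difference for Cdkn2a was largest in size in SM cells, at -2.10 ± 0.56 (SE) or 4.28-fold lower, with an unadjusted p of 0.00142 and an adjusted p of 0.717. It was -1.55 ± 0.61 in HE1 (2.93-fold lower, adjusted p = 1.00) and -1.34 ± 0.61 in d1 BC (2.54-fold lower, adjusted p = 1.00). It was -0.74 ± 0.61 in HE2, -0.68 ± 0.61 in HP and -0.34 ± 0.61 in FLK1+ 5h cells. Single arrays set these smaller values. Without an untreated array HE2 ranged from -1.30 (without replicate 2) to -0.19 (without replicate 1), HP from -1.31 (without replicate 1) to -0.05 (without replicate 2), and FLK1+ 5h from -0.91 (without replicate 2) to 0.23 (without replicate 1). Averaged over the 6 populations the difference was -1.12 ± 0.25, with a 95% interval from -1.64 to -0.61, lower in 6 of 6 populations, with an unadjusted p of 0.000229 and an adjusted p of 0.0782. This mean missed the threshold at which 0.17% of 28309 genes were called, 3 of them higher and 45 lower. It passed under 6 of 15 other settings, with adjusted p-values over all 15 from 0.0169 to 0.155.

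With DOX, Cdkn2a in d1 BC and SM cells remained above every array of FLK1+ and FLK1+ 5h cells. The DOX effect in FLK1+ 5h minus that in d1 BC was 1.01 ± 0.87 (95% interval -0.81 to 2.82), and that in FLK1+ 5h minus that in SM cells was 1.76 ± 0.83 (0.02 to 3.50, unadjusted p = 0.0478, adjusted p = 0.983). No difference of DOX effects between populations was called for any of the inhibitors (0 of 104 tested contrasts and 0% of all genes in each, 1 contrast with an unadjusted p under 0.05, lowest adjusted p 0.602).

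Cdkn2b gave 1.12 and 1.73 with DOX in d1 BC, below 2.73 and 2.88. In SM cells it gave -0.52 and -0.17, below 2.49, 2.41 and 0.29. In HE1 cells it gave -4.60 and -2.74, below -1.52 and -1.26, and the lower DOX value was not well above background. In HE2 cells neither DOX array (-6.04 and -5.00) was well above background, nor was the lower untreated array (-4.96), and no fold is given. In HP cells the values overlapped, at -6.44 and -4.12 with DOX and -5.61 and -0.50 without. Every DOX array was again lower in d1 BC, SM and HE1, with wide errors on each difference.

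The difference was -2.07 in SM cells (95% interval -4.37 to 0.23). HE1 cells gave -2.28 ± 1.20, a value of -1.36 without the dim DOX replicate 1 and of -0.94 with normexp correction. In d1 BC it was -1.39 ± 1.20 and in FLK1+ 5h cells 0.39 ± 1.20. Cdkn2b was not tested in HE2 and HP cells, since neither group there was well above background on both arrays. The mean over 6 populations was -1.44 ± 0.48 (adjusted p = 0.428), lower in 5 of 6 populations, HE2 and HP with their dim arrays included. It was called with the slide as a random block (-1.55, adjusted p = 0.0460).

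**Figure D2:**
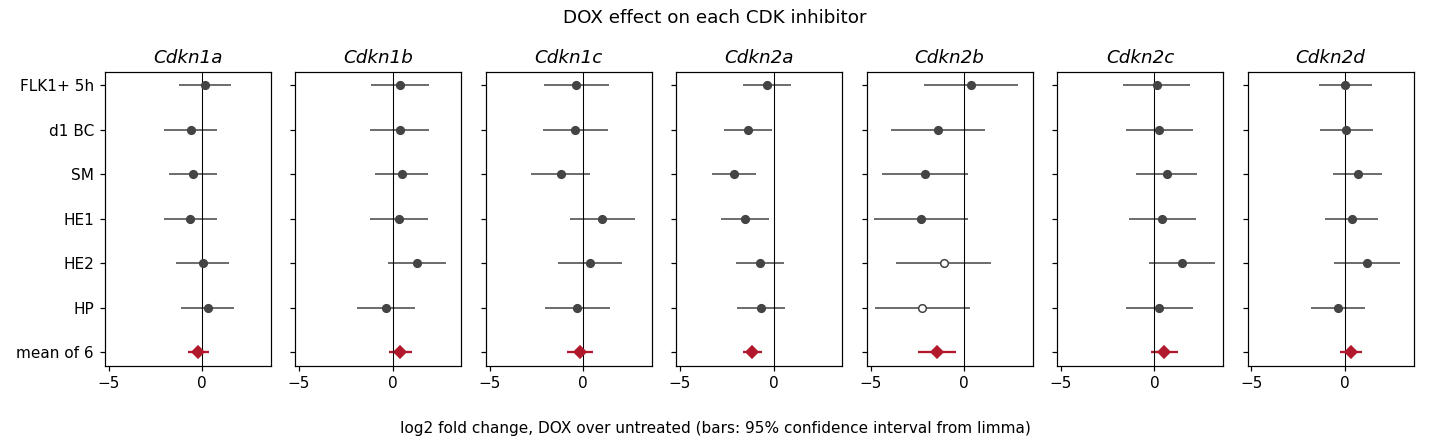
Log2 fold change of each CDK inhibitor with DOX over untreated (horizontal axis) in the 6 populations, with black points and 95% confidence intervals from limma, open points where the gene was not tested, and red diamonds for the mean of the 6 populations. The interval of the mean lies below 0 for Cdkn2a (-1.64 to -0.61) and Cdkn2b (-2.46 to -0.43) and spans 0 for the other 5 genes. An interval off 0 corresponds to an unadjusted p under 0.05, which 7.69% of 28309 genes had for the mean.

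Since values differed between slides for several of the genes, DOX and untreated arrays of the same slide were set against each other. There were 11 such pairs. For Cdkn2b both arrays were well above background in 7 pairs, and the signal was lower with DOX in 7 of these 7, by -0.28 to -3.62 with a median of -1.62. In 2 further pairs the DOX array, and in 2 both arrays, were not well above background (HE1 and HE2 with 1 pair each, and HE2 and HP with 1 pair each). Cdkn2a was lower in 9 of 11 pairs with a median of -1.43, and the 2 exceptions were 0.03 in FLK1+ 5h cells on slide 4 and 0.18 in HP cells on slide 1. Of 28014 genes 4.89% were lower in 9 or more of the 11 pairs, and 1.73% were lower in the 7 pairs that measured Cdkn2b, with signals not well above background counted too. In SM cells the Cdkn2a difference was -2.13 on slide 3 and -2.12 on slide 4, and in HE1 cells it was -1.57 on slide 1 and -1.53 on slide 3.

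**Figure D3:**
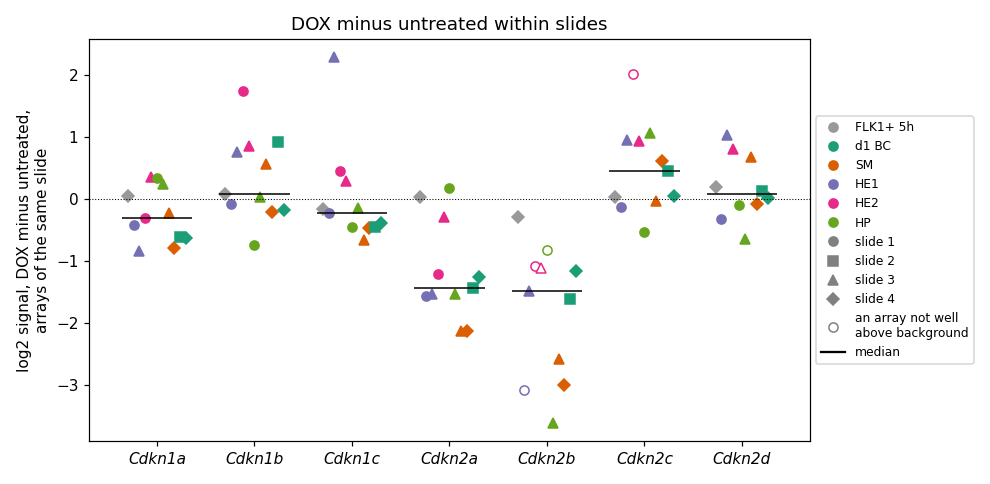
Log2 signal with DOX minus untreated (vertical axis) for pairs of arrays on the same slide, with colours for populations, shapes for slides, open markers for pairs with an array not well above background and a bar for the median of all pairs of each gene. Cdkn2b lies below 0 in the 7 pairs with both arrays well above background and Cdkn2a in 9 of 11, whereas the other 5 genes lie on both sides of 0.

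Both genes had a second, dimmer probe. Over the 27 arrays the probe pairs had a Pearson r of 0.77 for Cdkn2a and 0.93 for Cdkn2b. The dimmer Cdkn2a probe was well above background on 14 arrays. In SM cells it stood at -1.86, -2.13 and -2.61 untreated and at -4.12 and -4.52 with DOX, a difference of -2.12. In d1 BC it stood at -1.06 and -1.14 untreated and at -3.22 and -2.41 with DOX, a difference of -1.71. The dimmer Cdkn2b probe was well above background on 18 arrays. It gave -2.51 for SM, -1.82 for HE1 and -1.43 for d1 BC, with 1 of 2 HE1 DOX arrays well above background. In FLK1+ 5h cells (-0.27) its sign differed from that of the brighter probe.

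**Figure D4:**
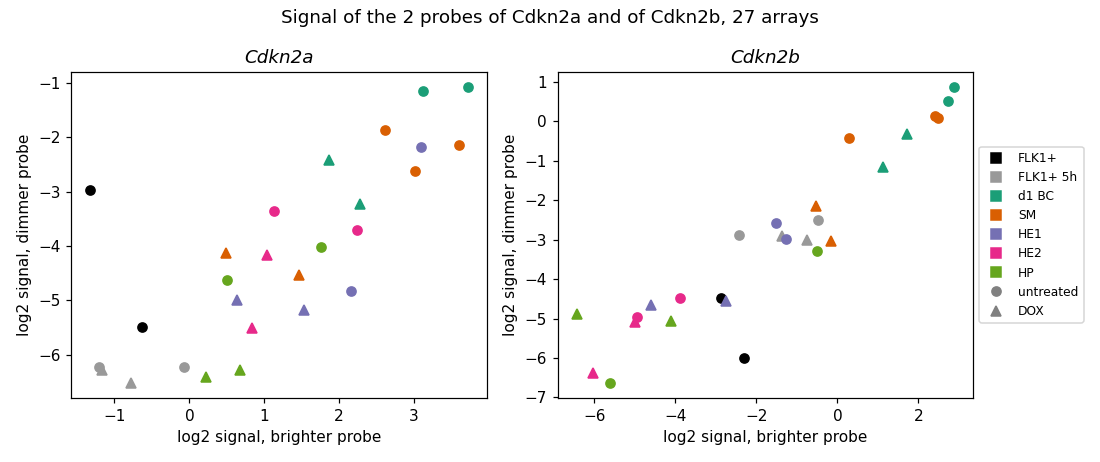
Log2 signal of the brighter probe (horizontal axis) against that of the dimmer probe (vertical axis) of Cdkn2a and Cdkn2b on 27 arrays, with colours for populations, circles for untreated and triangles for DOX arrays. Untreated d1 BC arrays lie at the upper right in both panels, above the d1 BC arrays with DOX, and Pearson r is 0.77 for Cdkn2a and 0.93 for Cdkn2b.

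Markers of other cells moved in the same populations. The summed signal of 8 fibroblast markers (linear, with the 75th percentile of the array as 1) was 34.2 to 41.8 in d1 BC and 14.6 to 19.5 with DOX. It was 172 to 212 in SM cells and 93.7 to 160 with DOX, and 46.4 to 88.8 in HE1 cells and 46.3 or less with DOX. In HE2 cells, where Cdkn2a arrays were also separated, the sums overlapped (3.91 to 5.32 and 3.24 to 5.11 with DOX), but those of 7 endothelial markers did not (81.9 to 109 and 119 to 153 with DOX). The endothelial sum was also higher with DOX in d1 BC (13.2 to 21.2 and 23.2 to 26.3 with DOX). Single endothelial markers did not all follow. In HE2 cells 2 were higher and 5 lower (median -0.29), and in d1 BC 3 of 6 tested were higher and 3 lower. The mean log2 difference of the 7 markers in HE2 cells was 0.99 on slide 1 and -0.92 on slide 3. The sum of 7 myeloid markers was lower with DOX in SM cells (21.2 to 39.5 and 12.2 to 14.1 with DOX). The sum of 7 blood progenitor markers was lower with DOX in d1 BC (5.39 to 7.59 and 3.49 to 4.39 with DOX) and higher in HE1 cells (4.49 to 5.27 and 6.07 or more with DOX). Single fibroblast markers did not all follow. With DOX 4 of 8 were higher and 4 lower in SM cells (median -0.08), and likewise in d1 BC (median 0.02). In HE1 cells 6 were higher and 2 lower (median 0.58). The mean log2 difference of the list there was -0.12 on slide 1 and 1.22 on slide 3. The collagen gene Col1a1 was lower in 6 of 6 populations (mean -1.19, adjusted p = 0.646). The summed signal of 8 smooth muscle markers overlapped in SM cells, at 1045 to 2070 untreated and 803 to 1725 with DOX, but was lower with DOX on both slides that held both (2070 and 1725 on slide 3, 1626 and 803 on slide 4). The sum of 6 erythroid markers overlapped in SM cells and d1 BC and was lower with DOX on each slide there, from 384 to 155 in SM cells and from 83.6 to 46.9 in d1 BC on slide 4. The fibroblast markers Lum and Dcn were well above background on all SM and d1 BC arrays. The part of these marker lists in the Cdkn2a and Cdkn2b values was not tested.

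**Figure D5:**
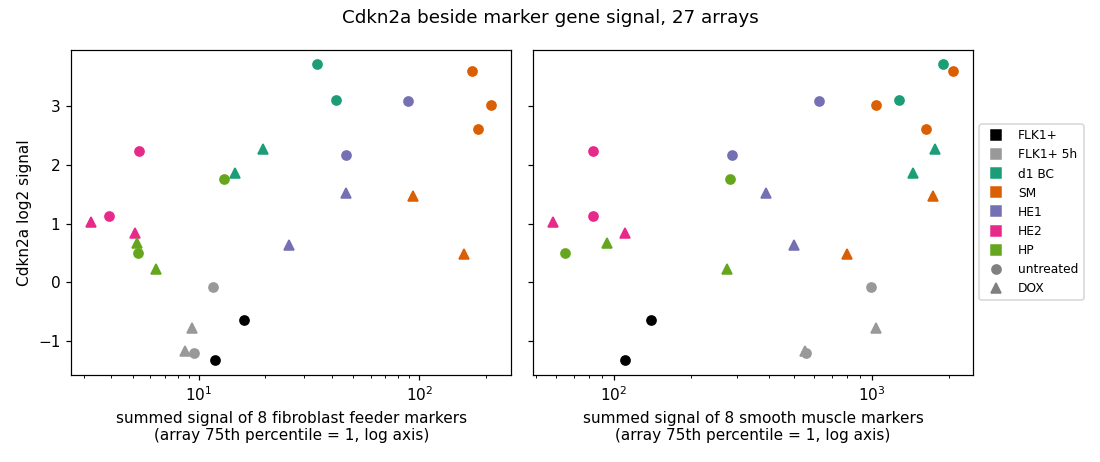
Log2 signal of Cdkn2a (vertical axis) against the summed linear signal of 8 fibroblast markers (left) and 8 smooth muscle markers (right), on log horizontal axes with the 75th percentile of the array as 1, for 27 arrays coloured by population with triangles for DOX. In SM cells the fibroblast sums run from 93.7 to 212 and the Cdkn2a values with DOX (0.49 and 1.47) lie below the untreated ones (2.61 to 3.60).

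For the other 5 inhibitors the interval of the mean effect spanned 0. Cdkn1a had a mean DOX effect of -0.21 ± 0.27 (95% interval -0.77 to 0.36), and was 2.42 and 3.78 with DOX against 3.21, 4.01 and 3.52 in SM cells. Cdkn1b had a mean of 0.43 ± 0.30 (-0.21 to 1.06), with its largest difference in HE2 cells, 1.93 and 3.24 with DOX against 0.17 and 2.39. That difference of 1.30 was 0.20 without untreated replicate 1 and 2.41 without untreated replicate 2. Within slides its median difference was 0.08 over 11 pairs, 4 of them lower with DOX. Cdkn1c had a mean of -0.14 ± 0.33 (-0.84 to 0.56). Its DOX arrays lay below the untreated ones in d1 BC and above them in HE2 cells, where 20.4% of genes were separated upwards. Its values in SM cells with DOX were 5.22 and 3.04, and within slides the SM differences were -0.46 and -0.66. In HE1 cells its difference was 1.03, with -0.23 on slide 1 and 2.29 on slide 3.

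Cdkn2c had a mean DOX effect of 0.53 ± 0.34 (-0.19 to 1.25), and was higher in 6 of 6 populations. Within slides it was lower in 3 of 11 pairs, with a median of 0.46, or of 0.25 over the 10 pairs with both arrays well above background. In HE2 cells it was -1.80 and -0.36 with DOX against -3.83 and -1.29, and values overlapped in all 6 populations. Cdkn2d had a mean of 0.33 ± 0.28 (-0.27 to 0.92), while its median difference within slides was 0.08 over 10 pairs, 4 of them lower. Its single spot was an outlier on HE2 DOX replicate 1 and was left out there, so that its HE2 difference of 1.19 ± 0.83 rests on 1 DOX array at 5.17. That difference ran from 0.27 with quantile normalization to 2.89 by the authors' values. None of these means was called, with adjusted p-values from 0.693 to 0.884.

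Genes whose 13 group means, DOX groups included, were most like those of each inhibitor were drawn from 16391 genes by Pearson r, as a description of groups that share slides. For Cdkn2a these were Syne1 (nesprin 1, r = 0.96), the matrix protease Adamts5 (0.95) and the kinase Lrrk1 (0.93). For Cdkn2b they were S100a11, a calcium-binding protein (0.97), Cyp1b1 (0.96) and the phosphatase subunit Ppp2r5b (0.96). For Cdkn1c they were Mmp11 (0.98), Kank4 and Susd4 (both 0.95), and for Cdkn1a Lhx9, Plec (both 0.88) and Cavin1 (0.86). For Cdkn1b they were Rpn1 (0.94), Slc39a7 (0.93) and Nampt (0.90), for Cdkn2c Poglut3, Ecscr (both 0.97) and Chpf2 (0.96), and for Cdkn2d Gas2l3, Slc23a2 (0.97 each) and Vrk2 (0.96). Between Cdkn2a and Cdkn2b themselves r was 0.48.

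The genes that act with the inhibitors were followed as lists. No gene of any list was called with DOX in any population or in the mean effect. Of the division genes, which E2F and mitosis drive, 17 of 17 tested were higher with DOX in SM cells with a median of 0.70, beside a median of 0.09 over all genes, and 1 had an unadjusted p under 0.05 (Tyms, 1.18 ± 0.52). In HE1 cells 17 of 17 were higher with a median of 0.57, beside 0.09 over all genes. In HE2 cells 17 of 17 were higher with a median of 0.81, beside 0.17 over all genes. In FLK1+ 5h cells 6 of 17 were higher (median -0.05, all genes -0.03). The mean effect was above 0 for all 17 (median 0.43, all genes 0.14), with the smallest p for Mcm5 (0.49 ± 0.23) and Tk1 (0.59 ± 0.28, and 1.15 in SM cells). Mcm2 was at 0.93 in HE2, 0.65 in HE1 and 0.59 in HP cells, Bub1 at 0.65 in HE1 and 1.47 in HE2, and Mcm7 at 0.65 in HP cells. The summed signal of the 18 genes on slide 3 was 1639 in SM cells with DOX and 907 without, and on slide 4 it was 599 and 525. In HE1 cells it was 1298 and 620 on slide 3 and 476 and 462 on slide 1, so that the difference lay mostly on slide 3. In HE2 cells it was 2253 and 1204 on slide 3 and 943 and 688 on slide 1. The arrays overlapped between the DOX and untreated groups in all 3 of these populations, and did not in d1 BC (770 to 818 untreated and 879 to 1146 with DOX). Within slides the sum was higher with DOX in 11 of 11 pairs. Other lists were often higher too, the cyclins and CDKs in 10 pairs and the RB and E2F, Polycomb and endothelial lists in 9 each. The fibroblast markers were higher in 1.

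Of the CDKs and cyclins, 13 were higher and 3 lower in SM cells (median 0.48), where Ccnb1 (0.72 ± 0.51) and Ccne1 (0.66 ± 0.50) had the smallest p. The summed signal of the list in SM cells was 658 with DOX and 426 without on slide 3, but 330 and 359 on slide 4. In the mean effect Ccne1, the cyclin of CDK2, was at 0.55 ± 0.22 and Ccnd1, the cyclin D that INK4 proteins oppose, at -0.65 ± 0.29, lower in 6 of 6 populations. In HP cells Cdk6, the kinase that p16 and p15 bind, was at -2.60 ± 0.90 with every DOX array below every untreated array (adjusted p = 0.909, 12.5% of genes separated downwards), and Ccnd1 was at -1.57 ± 0.71. In HE1 cells Ccne1 was at 0.95 ± 0.55 and Ccnb1 at 0.59 ± 0.56, and in HE2 cells Cdc25b was at 0.82 ± 0.52 and Ccne1 at 0.86 ± 0.55.

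Of the RB and E2F family, 12 of 13 were higher in SM (median 0.65) and in HE1 cells (median 0.49) and 13 of 13 in HE2 cells (median 0.91), whereas 8 were higher in d1 BC, 6 in HP and 1 in FLK1+ 5h cells and 10 in the mean effect. The summed signal in SM cells was 98.1 with DOX and 59.4 without on slide 3, and 44.4 and 43.7 on slide 4. In HE1 cells it was higher with DOX on slide 3 (76.9 and 38.6) and lower on slide 1 (29.8 and 33.4). Rbl1 (p107) was at 0.97 ± 0.60 in SM and 0.91 ± 0.65 in HE1 cells, Rbl2 (p130) at 0.79 ± 0.63 in HE1, E2f2 at 0.92 ± 0.59 in SM and 0.82 ± 0.65 in HP, Tfdp2 at 1.35 ± 0.58 and E2f3 at 1.09 ± 0.70 in HE2, and Tfdp1 at -0.74 ± 0.46 in HP cells. Mean effects were 0.58 ± 0.26 for E2f2 and 0.48 ± 0.23 for Tfdp2. None of these was called.

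The list of Polycomb regulators of the Cdkn2a and Cdkn2b locus holds genes of the silencing complexes and also Kdm6b, a demethylase that opposes them. Its genes were higher in SM cells in 16 of 16 tested (median 0.50) and in the mean effect in 15 of 16 (median 0.33). The summed signal of the list in SM cells was 294 with DOX and 176 without on slide 3, but 98.7 and 97.5 on slide 4, and the groups overlapped. Bmi1, the Polycomb repressor best known for acting on this locus, was at 1.27 ± 0.74 in SM cells and at 0.71 ± 0.33 in the mean effect. Ezh1 was at 0.68 ± 0.51 in SM, Phc1 at 0.74 ± 0.60 in HE1, Rnf2 at 1.39 ± 0.51 and Cbx2 at 1.07 ± 0.48 in HE2, and Cbx2 at 0.70 ± 0.48 and the demethylase Kdm6b at -0.87 ± 0.63 in HP cells.

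Among the TGF-beta, FOXO and MYC regulators, Tgfb1 was lower in 6 of 6 populations (mean -0.81 ± 0.33, adjusted p = 0.588, and -1.09 in SM). Tgfb2 was lower in SM cells with no overlap (-1.60 ± 0.57, adjusted p = 0.999, 6.03% of genes separated downwards). These 2 genes encode ligands of the pathway that induces Cdkn2b, and their part in the Cdkn2b values was not tested. The receptor gene Tgfbr2 was at 0.75 ± 0.51 in HE1 and 1.17 ± 0.51 in HE2, Smad3 at 1.20 ± 0.50 in HE2, Foxo4 at 0.63 ± 0.25 in the mean effect, 0.86 in HE1 and 1.44 ± 0.63 in HP, and Foxo3 at 1.01 ± 0.63 in HP cells. The list was split, with 9 higher and 6 lower in the mean effect (median 0.09, all genes 0.14) and 8 higher and 7 lower in SM cells (median 0.13).

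Of the p53 pathway, to which Cdkn1a belongs, 14 were higher and 6 lower in the mean effect (median 0.11, all genes 0.14). Sesn1, a p53 target of the stress response, had the smallest p (0.75 ± 0.21, adjusted p = 0.224) and stood at 1.45 ± 0.51 in HE2, 1.00 ± 0.51 in HE1 and 0.98 ± 0.47 in SM cells. Sesn2 was at 0.44 ± 0.32 in the mean effect, Pmaip1 (NOXA) at 1.09 in SM, 1.16 in HE1 and -2.70 ± 1.17 in HP, Mdm4 at 1.51 ± 0.64 in HP, and Trp53inp1 at 1.14 ± 0.58 in HE2 cells.

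Of the genes of p27 turnover, 5 of 7 were matched by symbol and 3 were higher and 2 lower in the mean effect, with Rnf123 at -0.55 ± 0.30 and Cops5 at 0.35 ± 0.23. Rnf123 was at -0.68 in SM and -0.78 in HP cells, Cops5 at 0.49 in HE1 and 0.98 in HE2, Cks1b at 0.49 in SM and in HE1 and 1.04 in HE2, and Fbxw7 at 0.76 in HP cells. Of the imprinted growth genes, the group to which Cdkn1c belongs, 15 were higher and 5 lower in the mean effect (median 0.18). Dlk1 was at 1.09 ± 0.46 in the mean effect, 2.18 in HE1 and 2.57 in HE2, Slc22a18 was at 0.51 ± 0.20 in the mean effect, Tssc4 was at 0.47 in SM and Nap1l4 at -1.33 in HP, Grb10 was at -1.09 ± 0.42 in SM and 1.02 ± 0.46 in HP cells, and Meg3 was at 2.01 ± 0.76 in HE2 cells. Kcnq1, the neighbour of Cdkn1c on chromosome 7, was at least 5.31-fold higher with DOX in HE1 cells, where no untreated array was well above background. It was well above background on 5 of 27 arrays. In HE1 cells it was tested through its 2 DOX arrays and was not called, and it was not tested in any other population.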

How the data were processed

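RNA of 27 samples was hybridised to one-colour Agilent mouse arrays. Per the file headers the authors' scans were read by Feature Extraction 10.7.3.1 (10.7.1.1 in the submitters' processing notes) into processed spot intensities, which are background-subtracted and not normalized between arrays. The authors also deposited a table of log2 values, whose normalization is not given in the sources used here. Each of its 27 columns was closest to its own array (lowest Pearson r 0.985, column medians 5.98 to 6.00), and it served as an alternative.

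Groups were taken from the labels. From the intensities, log2 signal minus the 75th percentile of each array was computed over probes, without control or outlier spots, and the probe with the highest mean stood for a gene. RefSeq accessions gave 20145 of 37208 genes a symbol. Group means were fitted in limma 3.58.1 (R 4.3.3) over all 13 groups, with 14 residual and 4.49 prior degrees of freedom. A gene was tested where every array of 1 or more groups compared had it well above background, p-values were adjusted by Benjamini-Hochberg over all of them, and a call needed an adjusted p under 0.05 and a change of 2-fold. All tests were two-sided. Plus-minus values are standard errors. On simulated data for the SM comparison (23827 genes) 17% of 100 genes changed 2 log2 units and 55% of 100 changed 3 log2 units were recovered, with 4 false calls.

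The inhibitors and gene lists were chosen with earlier results of these data known. By rule the text names, with 1 exception that is not reported here, the 7 inhibitors, the 3 genes nearest to each in pattern, the 2 genes of each pathway list with the smallest p in SM, HE1, HE2, HP and the mean effect, annotated neighbours and Hprt. Single marker genes were named from the marker lists after their values were seen. Sequences and positions are RefSeq's, assembly GRCm38.p6. Alternatives changed background correction, scaling, filter, probe, batch terms, variance model and the samples fitted. Figures were drawn with matplotlib 3.10.9 (Python 3.11.15).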

Additional observations from a re-analysis of the deposited data

How the results depend on the processing

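The mean DOX effect of Cdkn2a stayed negative under all 15 other settings (-1.49 to -1.03) and was called under normexp correction (-1.03), quantile normalization (-1.22), the authors' values (-1.22), the mean of probes (-1.31), a random slide block (-1.09) and a mean-variance trend (-1.12). That of Cdkn2b (-1.70 to -0.85) was called with the random slide block (-1.55). The inhibitors called for the mean effect thus numbered 0 in the report, 2 with the random slide block and 1 under the other 5 of these settings. The cause was not tested. Without 1 array at a time the Cdkn2a mean ran from -1.23 to -1.02 (adjusted p 0.0608 to 0.201) and the Cdkn2b mean from -1.87 to -1.02. With the replicate number as a block they were -1.13 (adjusted p = 0.0995) and -1.56 (adjusted p = 0.167), and no call changed. Deviations of same-numbered arrays had r of 0.68 in HP, 0.61 in d1 BC, 0.57 in HE1, 0.54 in SM, 0.25 in HE2 and -0.0082 in FLK1+ 5h cells. Same-numbered DOX and untreated arrays lay on the same slide, except replicate 1 of FLK1+ 5h cells (slides 5 and 2). The r at 5 h can therefore not decide whether the numbers pair the samples. The main fit used neither numbers nor slides as pairs. The count of inhibitors called for the mean effect was 0 there, 2 with the random slide block and 0 with a fixed slide term.

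The F test of Cdkn1c (span 3.46) missed the threshold with quantile normalization (3.84), the authors' values (3.76), only the groups compared (3.46) and without HP replicate 2 (3.27). That of Cdkn1a passed with the authors' values (1.71), and that of Cdkn2d with quantile normalization (2.05) and array weights (2.13). Cdkn2b (7.24) was not tested where both groups had to be above background.

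In 38 cases, 23 of them at 5 h and none called, the sign of a DOX effect turned. With median scaling it was -0.49 for Cdkn1a (FLK1+ 5h), -0.012 for Cdkn1a (HP), -0.24 for Cdkn1b (FLK1+ 5h), -0.25 for Cdkn2b (FLK1+ 5h), -0.52 for Cdkn2c (FLK1+ 5h), -0.039 for Cdkn2c (HP) and -0.62 for Cdkn2d (FLK1+ 5h). Median scaling shifts every gene alike within a comparison, and took the median of all genes at 5 h from -0.03 to -0.67. With the mean of probes it was -0.039 for Cdkn1a (FLK1+ 5h) and -0.27 for Cdkn1a (HE2). With the other probe it was -0.23 for Cdkn1a (FLK1+ 5h), -0.57 for Cdkn1a (HE2), -0.27 for Cdkn2b (FLK1+ 5h) and 0.0037 for Cdkn2b (HP). With a fixed slide term it was -0.11 for Cdkn1a (FLK1+ 5h), -0.11 for Cdkn1b (FLK1+ 5h), 0.089 for Cdkn1c (FLK1+ 5h) and -0.36 for Cdkn2b (FLK1+ 5h). With a random slide block it was -0.00049 for Cdkn1a (FLK1+ 5h). With a scan day term it was -0.047 for Cdkn1a (FLK1+ 5h), -0.13 for Cdkn1b (FLK1+ 5h), 0.39 for Cdkn1c (FLK1+ 5h), 0.011 for Cdkn1c (the mean effect), -0.47 for Cdkn2b (FLK1+ 5h), -0.15 for Cdkn2c (FLK1+ 5h) and -0.034 for Cdkn2d (FLK1+ 5h). With quantile normalization it was -0.48 for Cdkn1a (HE2), -0.0072 for Cdkn1c (HE2), -0.43 for Cdkn2c (FLK1+ 5h) and -0.0015 for Cdkn2c (HP). With the authors' values it was -0.49 for Cdkn1a (HE2), -0.0021 for Cdkn1b (HE1), -0.057 for Cdkn1c (HE2), -0.0072 for Cdkn2b (FLK1+ 5h), 0.13 for Cdkn2b (HE2), -0.26 for Cdkn2c (FLK1+ 5h) and -0.25 for Cdkn2d (d1 BC). With normexp correction it was -0.094 for Cdkn2d (FLK1+ 5h) and -0.26 for Cdkn2d (d1 BC). Leaving out 1 array turned a sign in 30 cases, none called. For Cdkn1a the ranges were -0.36 to 0.67 (FLK1+ 5h), -0.49 to 0.54 (HE2), -1.16 to 0.20 (SM) and -1.38 to 0.15 (d1 BC). For Cdkn1b the ranges were -0.45 to 1.14 (HE1), -1.08 to 0.38 (HP) and -0.22 to 0.97 (d1 BC). For Cdkn1c the ranges were -0.74 to 0.034 (FLK1+ 5h), -0.14 to 2.21 (HE1), -0.62 to 0.018 (HP) and -0.34 to 0.054 (the mean effect). For Cdkn2a the ranges were -0.91 to 0.23 (FLK1+ 5h). For Cdkn2b the ranges were -0.59 to 1.37 (FLK1+ 5h) and -4.78 to 0.34 (HP). For Cdkn2c the ranges were -0.13 to 0.37 (FLK1+ 5h), -0.064 to 0.89 (HE1), -0.79 to 1.32 (HP) and -0.076 to 0.58 (d1 BC). For Cdkn2d the ranges were -0.23 to 0.27 (FLK1+ 5h), -0.42 to 1.14 (HE1), -0.96 to 0.23 (HP), -0.24 to 1.58 (SM) and -0.031 to 0.19 (d1 BC). Pairs of untreated populations were not followed under the alternatives.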

Other observations

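RefSeq places 13 neighbouring genes beside the 7 inhibitors, of which 4 had a probe matched by symbol. Averaged over the 6 populations, the DOX effect was 0.07 ± 0.18 for Faf1 beside Cdkn2c and 0.25 ± 0.25 for Kri1 beside Cdkn2d, both well above background on 27 of 27 arrays. It was 0.70 ± 0.42 for Kcnq1 beside Cdkn1c and -0.68 ± 0.46 for Ap1m2 beside Cdkn2d, which were well above background on 5 and 12 arrays. None of the 4 was called by limma (adjusted p 0.895, 0.749, 0.688 and 0.702). The lncRNA Gm12610, which overlaps Cdkn2b and ends 560 bases from Cdkn2a, had no probe matched by symbol.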
